A study of Homo sapiens with 6 samples.

Results

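HTRA1, the trypsin-like proteases PRSS3 and PRSS23, and the cathepsins CTSB, CTSL, CTSK, CTSZ and CTSD are 8 proteases of the secretory and lysosomal compartments, and they are described here in HT1080, a human fibrosarcoma cell line. They were taken as all probe sets that the platform annotation gives to 1 of these 8 symbols alone, which made 13 of the 22283 probe sets on the array. All 8 genes had a probe set past the filter on dim signals, among 8045 genes tested. The members were picked with the values of MT1-MMP siRNA against mock in view, where HTRA1 was among the largest differences upward and PRSS3 among the largest downward, so their values in that comparison are given as a description with no test.

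Total RNA had been measured on 6 one-colour arrays in 3 groups of 2. The first group carried the pGUS vector expressing GFP and an siRNA against MT1-MMP, the membrane collagenase encoded by MMP14. The second carried the same vector with GFP and an siRNA against integrin alpha3, the laminin-binding subunit encoded by ITGA3. The reference cells (mock, titled GUS) carried the vector expressing GFP alone, so GFP and the vector are shared by every group. All groups are the 1 cell line. The labels name no clone, no time after transfection and no separate cultures, so each p-value reflects no more than how far paired arrays differed, and that spread may be technical.

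HTRA1 is a secreted serine protease that cleaves matrix proteins such as fibronectin and proteoglycans and is known as an antagonist of TGF-beta family signalling. PRSS3 encodes mesotrypsin, a trypsin that resists and degrades common trypsin inhibitors, and PRSS23 encodes a secreted protease of the trypsin fold. Cathepsins are made as inactive precursors and work mainly in acid lysosomes: B, L, K and Z use a catalytic cysteine and D a pair of aspartates. Tumour cells can also secrete them, and outside the cell they degrade collagen, laminin and fibronectin alongside membrane metalloproteinases such as MT1-MMP. Many lysosomal genes carry an E-box-like element near their start, which binds the factors TFEB, TFE3 and MITF.

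Promoters were found in the RefSeq table (GRCh38.p14) for 6 of the 8 members, namely HTRA1, PRSS3, PRSS23, CTSD, CTSL and CTSZ, and the 250 bases before each annotated start were searched. They are shown for 3 members: HTRA1, whose signal was most different with MT1-MMP siRNA, CTSD, the single member of the 6 with an E-box, and PRSS3, the single member of the 6 with no GC box. Each runs 5′ to 3′ in the direction of the gene. Capitals mark the GC box GGGCGG and the CCAAT box in HTRA1, the E-box CACGTG in CTSD, and the AP-1-like motif TGANTCA in PRSS3. N stands for any base. All were searched on both strands, so a match may read as the reverse complement.
HTRA1, chr10:122461303-122461552, plus strand: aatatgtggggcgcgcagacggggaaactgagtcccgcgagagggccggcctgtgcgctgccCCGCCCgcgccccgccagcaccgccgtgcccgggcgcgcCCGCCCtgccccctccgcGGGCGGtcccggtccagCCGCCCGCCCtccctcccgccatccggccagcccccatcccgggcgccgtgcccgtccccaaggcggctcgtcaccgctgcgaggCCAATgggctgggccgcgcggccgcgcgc
CTSD, chr11:1763928-1764177, minus strand: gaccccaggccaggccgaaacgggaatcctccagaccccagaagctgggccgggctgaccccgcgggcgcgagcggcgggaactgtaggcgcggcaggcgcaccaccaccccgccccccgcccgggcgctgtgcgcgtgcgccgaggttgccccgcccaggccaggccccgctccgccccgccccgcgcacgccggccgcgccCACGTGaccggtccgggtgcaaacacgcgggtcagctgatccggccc
PRSS3, chr9:33795311-33795560, plus strand: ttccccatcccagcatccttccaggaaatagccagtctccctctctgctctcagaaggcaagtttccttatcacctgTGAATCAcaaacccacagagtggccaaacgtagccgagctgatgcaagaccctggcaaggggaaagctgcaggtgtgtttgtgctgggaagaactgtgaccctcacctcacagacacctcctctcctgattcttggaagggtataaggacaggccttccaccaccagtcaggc

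The HTRA1 window held 5 GC boxes, of which 2 overlap, and 1 CCAAT box that begins 29 bases before the start. Over all 35116 promoters of this length in the table, 42.6% held a GC box and 32% a CCAAT box. The E-box of CTSD begins 47 bases before the start, and 6.34% of all promoters held one. The AP-1-like motif of PRSS3 reads TGAATCA and begins 173 bases before the start. TGANTCA with any base at N was held by 6.57% of all promoters. These matches describe letters and are not binding sites.

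The arrays had median signals between 72.9 and 83.1 and had been scaled alike before deposit. Each siRNA's own target had its lowest mean signal in its own group. On its brightest probe set MMP14 had signals of 812 and 717 under MT1-MMP siRNA, 999 and 1804 under alpha3 siRNA, and 1971 and 3064 in mock cells. On another MMP14 probe set the MT1-MMP siRNA arrays (729 and 536) overlapped the alpha3 siRNA arrays (691 and 1276). The log2 fold change of MMP14 for alpha3 siRNA over mock was -0.86 (SE 0.31, limma adjusted p = 0.851). ITGA3 had 1481 and 1634 under MT1-MMP siRNA, 148 and 347 under alpha3 siRNA, and 1139 and 1290 in mock cells. In limma, 0 of 8045 genes passed an adjusted p of 0.05 for MT1-MMP siRNA against mock (0%), with 1160 genes (14.4%) at an unadjusted p under 0.05. For alpha3 siRNA against mock 2 genes passed (0.0249%), and for MT1-MMP siRNA against alpha3 siRNA 112 passed (1.39%), but 0 with either MT1-MMP siRNA array left out and 6 with alpha3 siRNA replicate 2 left out. None of the 8 proteases was among them in any of the 3 comparisons.

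HTRA1 had the clearest separation of the serine proteases. Its 1 probe set read 1711 and 1065 under MT1-MMP siRNA, 640 and 213 under alpha3 siRNA, and 278 and 249 in mock cells. The MT1-MMP siRNA arrays lay above all 4 others, while the alpha3 siRNA arrays lay on either side of the mock pair. The log2 fold change of MT1-MMP siRNA over mock was 2.23 (SE 0.43), which ranked 6th by size among 8045 genes, and it lay between 1.90 and 2.56 with any 1 array left out. In bulk RNA, more cells of a kind and more RNA per cell cannot be told apart. The 2 MT1-MMP siRNA arrays differed from each other by 0.67 on the log2 scale, a wider gap than in 92% of genes of that group.

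With alpha3 siRNA against mock the log2 fold change of HTRA1 was 0.46 (SE 0.43, limma adjusted p = 0.915). That value turned to -0.27 without alpha3 siRNA replicate 1 and was 1.19 without replicate 2, since the 2 alpha3 siRNA arrays differed by 1.46, more than 98.8% of genes in that group. MT1-MMP siRNA stood above alpha3 siRNA by 1.77 (SE 0.43, adjusted p = 0.0725), by 2.50 (adjusted p = 0.0434) without alpha3 siRNA replicate 1 and by 1.04 without replicate 2. This comparison shares the MT1-MMP siRNA arrays by which HTRA1 was picked and is not independent of that choice. The summed signal of 12 fibroblast and mesenchymal markers, led by VIM and FN1, was highest in the same group. It was 40300 and 30700 under MT1-MMP siRNA, 23800 and 19200 under alpha3 siRNA, and 19800 and 23700 in mock cells. Bright genes weigh most in such a sum: FN1 alone read 12635 and 9354 under MT1-MMP siRNA, against 1869 and 5529 in mock cells. Of the 9 markers past the filter, 7 lay above 0 and 2 (S100A4 and THY1) below for MT1-MMP siRNA over mock, with a median of 0.29. The part of these markers in the HTRA1 values was not tested.

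**Figure D1:**
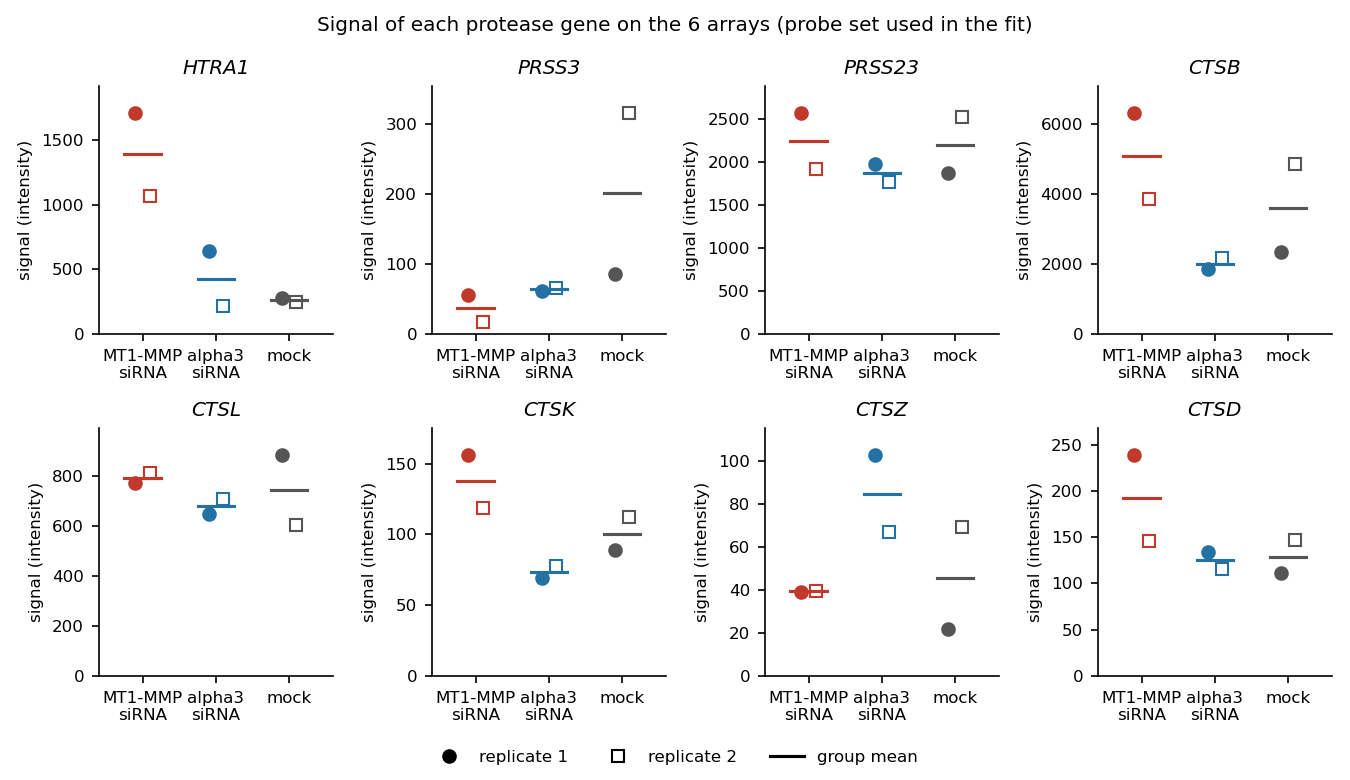
Signal (linear intensity, from 0) of the probe set used for each of the 8 proteases, by group, with replicate 1 as filled circles, replicate 2 as open squares and the group mean as a line. HTRA1 is highest on both MT1-MMP siRNA arrays (1711 and 1065), and PRSS3 is high on mock replicate 2 alone (317).

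Mesotrypsin (PRSS3) differed mainly by 1 mock array. Its brighter probe set read 56.4 and 17.4 under MT1-MMP siRNA, 61.4 and 66.5 under alpha3 siRNA, and 85.7 and 317 in mock cells. The 3 groups did not overlap on this probe set, but the gap between the mock arrays was 1.57 on the log2 scale, wider than in 99.4% of genes of that pair. The other probe set read 52.0 and 62.4 under MT1-MMP siRNA, 34.7 and 55.8 under alpha3 siRNA, and 47.6 and 265 in mock cells, and there mock replicate 1 lay among the siRNA arrays.

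The log2 fold change of PRSS3 for MT1-MMP siRNA over mock was -1.62 (SE 0.49) on the brighter probe set and -0.79 on the other. The first value was -0.83 with mock replicate 2 left out and -2.40 with mock replicate 1 left out. For alpha3 siRNA over mock it was -1.08 (SE 0.49, adjusted p = 0.855), and it moved to -0.30 when mock replicate 2 was left out and to -1.86 when mock replicate 1 was. This comparison shares the mock arrays by which PRSS3 was picked and is not independent of that choice. All PRSS3 signals outside mock replicate 2 were at 85.7 or below, near the filter at a signal of 47.5, where the offset of 32 added before the logarithm sets much of the size: the MT1-MMP siRNA value was -2.35 with an offset of 1 and -1.04 with an offset of 100.

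Both PRSS3 probe sets carry the suffix _x_at, which marks probes that can match more than 1 sequence, and trypsinogen genes are closely similar to each other. The other singly annotated trypsinogen probe sets were looked up after the PRSS3 values were seen. A probe set of the pseudogene PRSS3P2 read 17.3 and 9.6 under MT1-MMP siRNA, 53.1 and 24.3 under alpha3 siRNA, and 8.7 and 130 in mock cells. A probe set of PRSS2, anionic trypsinogen, read 22.1 and 9.4 under MT1-MMP siRNA, 10.2 and 5.5 under alpha3 siRNA, and 7.6 and 83.8 in mock cells. Both were highest on mock replicate 2 and both were under the filter, so the signal on that array cannot be given to PRSS3 with certainty. The second PRSS2 probe set had no such peak, with 55.1 on mock replicate 2 against 52.7 on mock replicate 1. Of 13 markers of pancreatic acinar cells, where trypsinogens are made in bulk, 7 had probe sets and 3 passed the filter, and the summed signal of the 7 was 300 and 353 under MT1-MMP siRNA, 278 and 249 under alpha3 siRNA, and 302 and 302 in mock cells.

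PRSS23 did not separate the groups. It read 2572 and 1911 under MT1-MMP siRNA, 1970 and 1764 under alpha3 siRNA, and 1874 and 2522 in mock cells, and all groups overlapped. The log2 fold change was 0.03 (SE 0.22) for MT1-MMP siRNA over mock and -0.22 (SE 0.22, adjusted p = 0.915) for alpha3 siRNA over mock.

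Among the cathepsins, CTSB was lowest with alpha3 siRNA. Cathepsin B, an endo- and exopeptidase often found at the invasive edge of tumours, had 4 probe sets, all past the filter. The brightest read 6332 and 3850 under MT1-MMP siRNA, 1849 and 2173 under alpha3 siRNA, and 2351 and 4869 in mock cells. Mock replicate 2 sat between the MT1-MMP siRNA arrays and mock replicate 1 just above the alpha3 siRNA pair. The mock arrays differed by 1.04 on the log2 scale, more than 97.8% of genes of that pair.

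For alpha3 siRNA over mock the log2 fold change of CTSB was -0.75 (SE 0.35, adjusted p = 0.855), and the 4 probe sets lay between -0.80 and -0.46, with no overlap of arrays in 3 of them. Leaving out mock replicate 1 gave -1.27 and leaving out mock replicate 2 gave -0.23. For MT1-MMP siRNA over mock it was 0.54 (SE 0.35), with the probe sets between 0.21 and 0.54, overlapping arrays in all 4. Leaving out mock replicate 1 gave 0.02, and leaving out mock replicate 2 gave 1.06. MT1-MMP siRNA stood above alpha3 siRNA by 1.29 (SE 0.35, adjusted p = 0.0875). In that comparison all 4 probe sets lay between 0.71 and 1.30 with no overlap, and leaving out any 1 array left the value between 0.93 and 1.64.

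**Figure D2:**
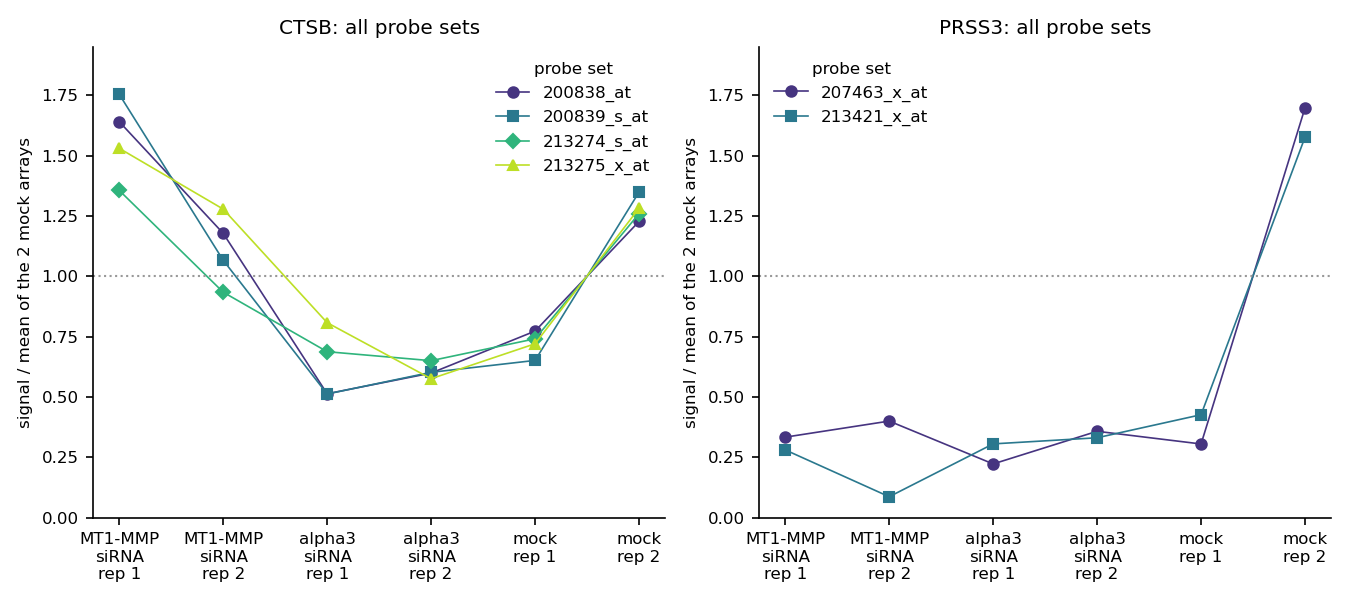
Signal of every CTSB probe set (left) and PRSS3 probe set (right) on each array, divided by the mean of the 2 mock arrays of that probe set (vertical axis, from 0). The 4 CTSB probe sets follow one another, lowest with alpha3 siRNA, and the 2 PRSS3 probe sets peak on mock replicate 2.

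CTSK followed the same order of groups as CTSB at a lower signal. Cathepsin K, a collagenase best known from osteoclasts, read 156 and 118 under MT1-MMP siRNA, 69.5 and 77.4 under alpha3 siRNA, and 88.8 and 112 in mock cells. No 2 of the 3 groups overlapped, as was also so for the fitted probe set of PRSS3. This held for 2 of the 8 proteases, against 13.4% of all genes tested. The log2 fold change of CTSK was 0.35 (SE 0.23) for MT1-MMP siRNA over mock and -0.32 (SE 0.23, adjusted p = 0.901) for alpha3 siRNA over mock. The first was 0.19 without MT1-MMP siRNA replicate 1 and 0.51 when replicate 2 of that group was left out, and the second was -0.45 when mock replicate 1 was dropped and -0.20 when mock replicate 2 was. MT1-MMP siRNA stood above alpha3 siRNA by 0.68 (SE 0.23, adjusted p = 0.132).

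CTSD, the main aspartic protease of lysosomes, read 239 and 146 under MT1-MMP siRNA, 135 and 116 under alpha3 siRNA, and 111 and 147 in mock cells. MT1-MMP siRNA replicate 1 alone lay clear of the others. The log2 fold change was 0.46 (SE 0.26) for MT1-MMP siRNA over mock, with 0.15 without that array and 0.76 without replicate 2, and -0.03 (SE 0.26, adjusted p = 0.993) for alpha3 siRNA over mock. CTSL, a broad endopeptidase, read 771 and 810 under MT1-MMP siRNA, 648 and 709 under alpha3 siRNA, and 885 and 605 in mock cells. The mock arrays enclosed both other groups, and its log2 fold change was 0.11 (SE 0.22) for MT1-MMP siRNA over mock and -0.11 (SE 0.22, adjusted p = 0.961) for alpha3 siRNA over mock.

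CTSZ was the cathepsin with its highest mean in the alpha3 siRNA group. Cathepsin Z, a carboxypeptidase, read 39.2 and 39.4 under MT1-MMP siRNA, 103 and 66.7 under alpha3 siRNA, and 21.8 and 69.1 in mock cells on the probe set past the filter. It passed the filter at 47.5 only through the alpha3 siRNA group: the mean signal was 39.3 under MT1-MMP siRNA, 84.8 under alpha3 siRNA and 45.4 in mock cells. A higher value in that group is therefore partly fixed by the filter, and the comparisons of CTSZ with alpha3 siRNA support nothing. The MT1-MMP siRNA arrays lay below both alpha3 siRNA arrays, and the mock arrays enclosed the MT1-MMP siRNA pair. As a description, the log2 fold change for alpha3 siRNA over mock was 0.65 (SE 0.34), and it was 0.19 with mock replicate 1 left out and 1.10 with mock replicate 2 left out. The second probe set, under the filter, read 10.5 and 4.0 under MT1-MMP siRNA, 37.4 and 13.4 under alpha3 siRNA, and 9.5 and 7.0 in mock cells.

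Over the 8 proteases, the arrays of MT1-MMP siRNA and mock did not overlap for 3 (HTRA1 and CTSK higher, PRSS3 lower), where 49.9% of all genes did not, and nothing is read from this count since the members were picked on that comparison. For alpha3 siRNA against mock 3 did not overlap (PRSS3, CTSB and CTSK, all lower), against 34.4% of all genes in either direction and 18% lower. None of the 8 had an unadjusted p under 0.05 there, against 5.73% of all genes. For MT1-MMP siRNA against alpha3 siRNA 7 of the 8 did not overlap, against 53.9% of all genes. HTRA1, CTSB, CTSD, CTSK and CTSL were higher with MT1-MMP siRNA (5 of 8, against 28% of all genes) and PRSS3 and CTSZ lower (2 of 8, against 25.9%). CTSZ passed the filter only through alpha3 siRNA. PRSS3 was lower on its brighter probe set alone (-0.54), while the other read 0.22 with overlapping arrays and averaging its probe sets gave -0.16. In this comparison 3 (HTRA1, CTSB and CTSK) had an unadjusted p under 0.05 against 23.4% of all genes. The 3 comparisons share arrays in pairs. Since the members were picked on the MT1-MMP siRNA and mock arrays, the counts in both other comparisons are not independent of that choice. Nothing is read from those counts either. MT1-MMP siRNA replicate 1 was the brightest array for 5 of the 8 proteases (HTRA1, PRSS23, CTSB, CTSD and CTSK) and for 23.5% of all genes tested.

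**Figure D3:**
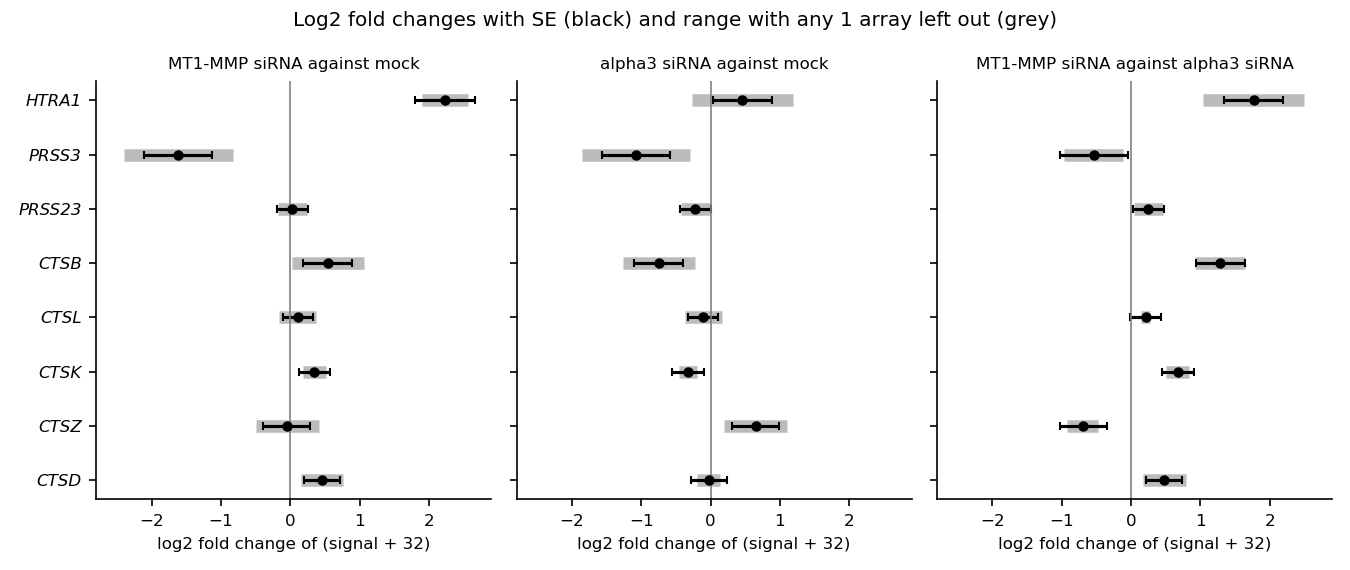
Log2 fold change of each protease (horizontal axis, first-named group over the second, of signal plus 32) in the 3 comparisons, as black points with the SE and a grey bar for the range when any 1 array is left out. HTRA1 with MT1-MMP siRNA over mock lies at 2.23 with a range of 1.90 to 2.56, while the bars of PRSS3 and CTSB over mock are wide, as the mock arrays differed.

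Genes around the proteases were read from fixed lists. The list of lysosomal enzymes other than cathepsins lay higher with MT1-MMP siRNA: of 26 listed genes on the array 25 were tested, 22 lay above 0, and 17 did not overlap upward, against 24.6% of all genes. Their median log2 fold change was 0.49, against 0 over all genes, and 0 passed the adjusted threshold while 7 had an unadjusted p under 0.05 upward, against 6.76% of all genes. This list, called lysosomal enzymes throughout, also holds SCARB2, NPC2, PSAP and GM2A, which are not enzymes and all lay above 0. GAA, the acid glucosidase that degrades glycogen, read 327 and 259 under MT1-MMP siRNA, 50.0 and 96.6 under alpha3 siRNA, and 158 and 78.4 in mock cells. SMPD1, acid sphingomyelinase, read 556 and 474 under MT1-MMP siRNA, 356 and 252 under alpha3 siRNA, and 325 and 260 in mock cells. Both genes had MT1-MMP siRNA arrays above all 4 others.

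FUCA1, a fucosidase, read 264 and 284 under MT1-MMP siRNA, 272 and 68.0 under alpha3 siRNA, and 128 and 84.7 in mock cells. With alpha3 siRNA against mock the median of the lysosomal enzymes was 0.01, with 13 above 0 and 12 below. The median level of the list, relative to each gene's own mean over the 6 arrays, was 0.46 and 0.20 under MT1-MMP siRNA, 0.00 and -0.39 under alpha3 siRNA, and -0.19 and -0.05 in mock cells. The MT1-MMP siRNA arrays were highest, while the alpha3 siRNA arrays lay on either side of the mock pair. With any 1 array left out the median over mock lay between 0.35 and 0.59 for the MT1-MMP siRNA group and between -0.19 and 0.15 for the alpha3 siRNA group. Of the 19 tested lysosomal enzymes with a promoter in the table, 4 (GAA, GALNS, NEU1 and ARSB) held the E-box shown above for CTSD, a share of 21.1% of genes against 6.34% of all promoters. The same 19 all held a GC box (100%), against 42.6% of all promoters, so their promoters differ from the whole table in more than the E-box, and a share of genes is not the same measure as a share of promoters.

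The joint list of lysosomal membrane and pump genes and the list of sorting genes had medians near or below 0 with MT1-MMP siRNA. Their difference from the lysosomal enzymes was not tested. Lysosomal membrane proteins and subunits of the proton pump had a median of -0.14 over 21 genes with MT1-MMP siRNA, 8 above 0 and 13 below, and the median lay between -0.16 and -0.04 with any 1 array left out. Of the membrane proteins, LAMP2 (0.51), LAMP1 (0.49), CD63 (0.32), MCOLN1 (0.26) and NPC1 (0.11) lay above 0, and CTNS (-0.14) and CLN3 (-0.23) below. Most pump genes lay below 0, with ATP6AP2 (0.59), ATP6V1A (0.46) and ATP6AP1 (0.21) above. LAMP1, the main membrane glycoprotein of lysosomes, read 5132 and 4459 under MT1-MMP siRNA, 3930 and 2737 under alpha3 siRNA, and 3334 and 3445 in mock cells on its brightest probe set, and the arrays of MT1-MMP siRNA and mock overlapped on its 3 other probe sets past the filter. ATP6V1B2, a pump subunit, read 608 and 710 under MT1-MMP siRNA, 1048 and 804 under alpha3 siRNA, and 915 and 973 in mock cells. Sorting receptors and the TFE factors had a median of -0.02 over 14 genes, between -0.12 and 0.01 with any 1 array left out.

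Cathepsins outside the 8, with legumain, tripeptidyl peptidase and the BACE proteases, had a median of 0.52 over 9 genes with MT1-MMP siRNA, 7 above 0, and 0 passed the adjusted threshold. The median was 0.19 when MT1-MMP siRNA replicate 1 was left out and 0.33 when mock replicate 1 was. CTSH, an aminopeptidase, read 408 and 165 under MT1-MMP siRNA, 307 and 82.5 under alpha3 siRNA, and 81.9 and 151 in mock cells, with a wide gap in every pair. CTSV, the close relative of CTSL, was lower with both siRNAs, at 65.1 and 100 under MT1-MMP siRNA, 106 and 113 under alpha3 siRNA, and 155 and 155 in mock cells (alpha3 siRNA over mock -0.41, adjusted p = 0.874). LGMN, the asparaginyl endopeptidase that processes cathepsins, read 70.7 and 130 under MT1-MMP siRNA, 163 and 94.0 under alpha3 siRNA, and 9.3 and 82.6 in mock cells.

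Genes listed as protease inhibitors lay on both sides of 0, and whether they inhibit the proteases described here was not tested. Of 10 genes tested from the serine protease inhibitor list, 5 lay above 0 and 5 below with MT1-MMP siRNA, with a median of 0.04. These include SERPINH1 (-0.05), SERPINB5 (-0.36) and RECK (0.96), which are not established inhibitors of serine proteases. Dropping MT1-MMP siRNA replicate 1 put the median at -0.18, dropping replicate 2 of that group at 0.37, and dropping mock replicate 1 at -0.13. SERPINI1, neuroserpin, read 298 and 286 under MT1-MMP siRNA, 52.7 and 36.0 under alpha3 siRNA, and 39.5 and 74.7 in mock cells. Against alpha3 siRNA 2 of the 10 passed the adjusted threshold, against 1.39% of all genes, both higher with MT1-MMP siRNA: SERPINI1 (log2 fold change 2.09, SE 0.26, adjusted p = 0.0232) and the secreted inhibitor SERPINE2 (1.38, SE 0.22, adjusted p = 0.0312). With either MT1-MMP siRNA array left out 0 genes passed in this comparison. Of the cysteine protease inhibitors 2 of 12 passed the filter: CST3, cystatin C, read 1278 and 961 under MT1-MMP siRNA, 349 and 789 under alpha3 siRNA, and 636 and 841 in mock cells. CSTB, the cytosolic cystatin B, read 1499 and 1121 under MT1-MMP siRNA, 1160 and 1150 under alpha3 siRNA, and 1283 and 1850 in mock cells.

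Known substrates and partners of HTRA1 lay mostly higher with MT1-MMP siRNA, with 18 of 19 above 0, 12 not overlapping upward and a median of 0.39, against 24.6% and 0 over all genes. None passed the adjusted threshold, and 6 had an unadjusted p under 0.05 upward, against 6.76% of all genes. FN1, fibronectin, read 12635 and 9354 under MT1-MMP siRNA, 5237 and 1882 under alpha3 siRNA, and 1869 and 5529 in mock cells. TGFB2, a TGF-beta ligand, read 170 and 114 under MT1-MMP siRNA, 126 and 107 under alpha3 siRNA, and 50.8 and 52.7 in mock cells, so on this probe set all 4 siRNA arrays lay above mock (alpha3 siRNA over mock 0.82, SE 0.24, adjusted p = 0.833). Its other probe set past the filter overlapped, at 56.0 and 60.3 under MT1-MMP siRNA, 67.6 and 42.6 under alpha3 siRNA, and 51.2 and 57.2 in mock cells. With alpha3 siRNA the median of the list was -0.02, and 0.27 without replicate 2 of that group. HTRA2, the mitochondrial relative of HTRA1, was the 1 other family member with a probe set and read 422 and 486 under MT1-MMP siRNA, 481 and 523 under alpha3 siRNA, and 505 and 597 in mock cells.

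Other trypsin-like serine proteases had a median of 0 in both comparisons with mock, and 11 of the 32 on the array passed the filter. With any 1 array left out the median ran from -0.08 to 0.16 for MT1-MMP siRNA and from -0.09 to 0.25 for alpha3 siRNA. HPN, the transmembrane protease hepsin, read 78.8 and 88.8 under MT1-MMP siRNA, 63.4 and 43.2 under alpha3 siRNA, and 38.8 and 58.7 in mock cells. Of the receptors that such proteases activate, only F2R, the thrombin receptor, passed the filter, at 179 and 111 under MT1-MMP siRNA, 78.3 and 23.9 under alpha3 siRNA, and 45.5 and 62.0 in mock cells. Markers of macrophages and leukocytes, cells rich in cathepsins, were dim: 3 of 11 (CSF1R, ITGAM and CD3D) passed the filter, and PTPRC and CD14 did not. The summed signal of all 11 was 412 and 373 under MT1-MMP siRNA, 475 and 363 under alpha3 siRNA, and 418 and 478 in mock cells.

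**Figure D4:**
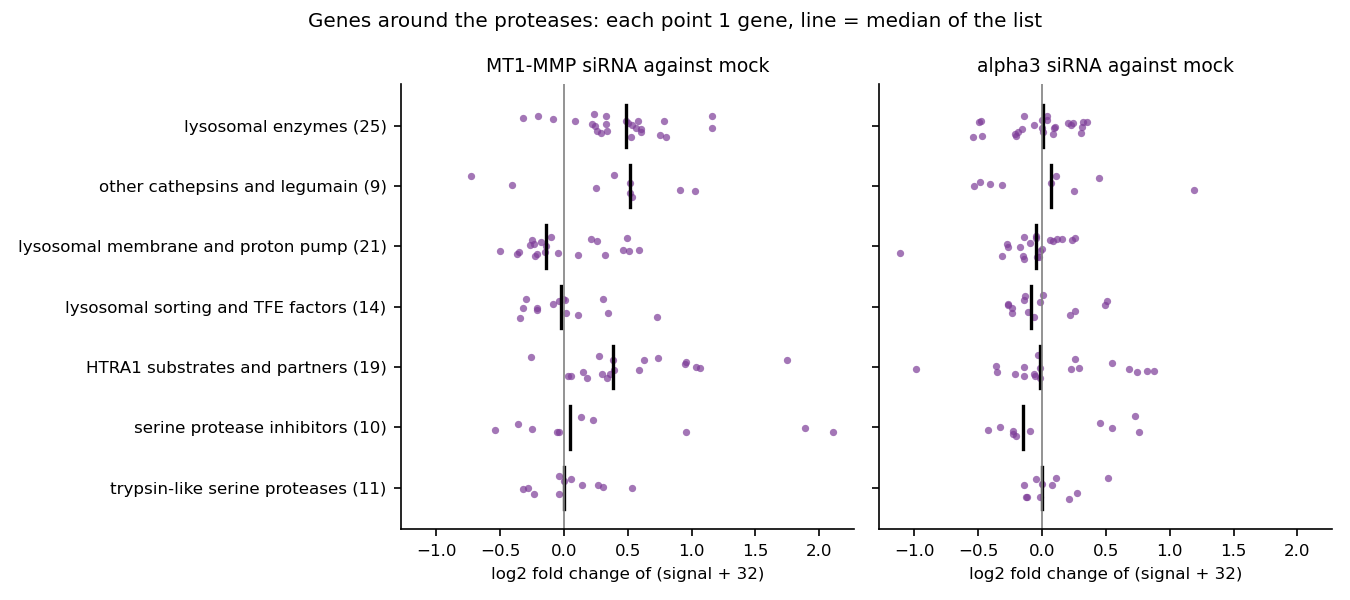
Log2 fold change (horizontal axis, siRNA group over mock, of signal plus 32) of each tested gene in 7 lists, with the number of genes in brackets and the list median as a line, for MT1-MMP siRNA (left) and alpha3 siRNA (right). The medians of lysosomal enzymes and of HTRA1 substrates lie at 0.49 and 0.39 on the left and at 0.01 and -0.02 on the right, and these 2 comparisons share the mock arrays.

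The genes whose log2 values followed HTRA1 most closely over the 6 arrays were TWIST1 (r = 0.994), ECE1, CNTNAP3P2, WASHC3 and RPS27L (r = 0.987). TWIST1, a transcription factor of mesenchymal cells, read 185 and 148 under MT1-MMP siRNA, 134 and 87.8 under alpha3 siRNA, and 93.0 and 86.8 in mock cells. ECE1, a membrane metallopeptidase that makes endothelin, read 453 and 382 under MT1-MMP siRNA, 309 and 232 under alpha3 siRNA, and 239 and 248 in mock cells. Another 64 of the 8044 genes compared also had an r above 0.95 with HTRA1, so the likeness is shared by many. The genes closest to CTSK were TBC1D12 (r = 0.997), SPATA20, PDK3, SH3BGRL and BEX3 (r = 0.993), with 119 others above 0.95. SH3BGRL read 817 and 568 under MT1-MMP siRNA, 213 and 231 under alpha3 siRNA, and 320 and 448 in mock cells, the order of groups seen in CTSK and CTSB. Those closest to PRSS3 were PLSCR1 (r = 0.97), ANKRD17, PRPS2, DROSHA and RIC8B (r = 0.95), all brightest on mock replicate 2. These correlations describe 6 arrays in 3 groups and carry no test.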

How the data were processed

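The values are the intensity per probe set, linear and above 0, as deposited by the authors in the series matrix. Leaving out the brightest and dimmest ends, the middle 96% averaged 250.1 on each array, which shows a common scaling before deposit. No source used here names the software, the background method or detection calls, so a dim signal cannot be called absent.

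Values were raised to at least 1 and turned into log2(value + 32), which understates changes of dim genes. Of 19065 singly annotated probe sets, those with a mean log2 value above the 40th percentile (signal 47.5) were kept, and the brightest stood for each of 8045 genes. Group means were estimated from the 6 arrays together with limma 3.58.1 under R 4.3.3 (eBayes with an intensity trend, 3 residual degrees of freedom). Calls needed a Benjamini-Hochberg adjusted p under 0.05 over all genes. An SE is that of a log2 fold change. The fit was tested on simulated data. Promoters came from RefSeq (GRCh38.p14). Figures used matplotlib 3.10.9.

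The members and lists were chosen with earlier results of these data known. The text names all 8 members, MMP14 and ITGA3, list genes among the 4 largest non-overlapping differences per list, and the 5 genes closest to HTRA1, PRSS3 and CTSK. Further list genes are named where they show how a list is made up. Alternatives changed the scaling, offset, filter, probe set rule, variance model, groups fitted, block and arrays.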

Additional observations from a re-analysis of the deposited data

How the results depend on the processing

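The count of genes called for MT1-MMP siRNA against mock, 0 as reported, was 1 under quantile normalization, 3 with an offset of 1, 6 with an offset of 100, 2 with probe sets averaged per gene, 7 with only the 2 groups fitted, and 0 to 8 with any 1 array left out. For alpha3 siRNA against mock, 2 as reported, it was 1 under quantile normalization, 0 with an offset of 1, 1 with an offset of 100, 1 with no filter, 0 with a filter at the 60th percentile, 1 with only the 2 groups fitted, and 0 to 9 with any 1 array left out. For MT1-MMP siRNA against alpha3 siRNA, 112 as reported, it was 69 with an offset of 1, 22 with no filter, 178 with a filter at the 60th percentile, 72 without the intensity trend, and 0 to 83 with any 1 array left out. Leaving out an array also removes a residual degree of freedom; the cause of the other shifts was not tested. With the replicate number as a block, the counts were 11, 4 and 114 in the same order, and HTRA1 passed between the siRNAs (log2 fold change 1.77, adjusted p = 0.0282). That comparison uses the MT1-MMP siRNA arrays by which HTRA1 was picked, so the pass is not independent of that choice. The replicate numbers are not shown to pair arrays: over genes, the within-pair differences correlated at -0.176 between MT1-MMP siRNA and mock, -0.175 between alpha3 siRNA and mock, and 0.127 between the siRNAs. With any 1 array left out, the log2 fold change of alpha3 siRNA over mock ran from -0.27 to 1.19 for HTRA1, from -0.19 to 0.13 for CTSD and from -0.37 to 0.16 for CTSL, changing sign in each. No planned processing change turned the sign of a protease in that comparison or between the siRNAs. Under these processing changes only HTRA1 passed in those 2, with the block, and the limit given above for that pass holds. The trypsin-like list had no tested gene at the 60th percentile. No detection calls were used here, so PRSS3 and CTSZ near the filter are the least certain.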
